A study of Mus musculus with 52 samples.

Results

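The 9 mouse genes described here encode light chains of sarcomeric myosin (Myl1, Myl3, Myl4, Myl6b, Mylpf and Myl2), the skeletal light chain kinase (Mylk2) and the alpha-actinins of the sarcomere (Actn2 and Actn3). They were taken by gene symbol from the deposited table of counts, in which they are 9 of 55401 mouse genes, and all 9 were found. In the sarcomere each myosin heavy chain carries an essential and a regulatory light chain on its neck, and alpha-actinin crosslinks the actin filaments at the Z-disc. Muscle fibers of different speed use different genes for the same part: Myl1 is the essential and Mylpf the regulatory light chain of fast fibers, whereas Myl3 and Myl2 are those of slow fibers and of the heart ventricle. Myl4 is the essential light chain of embryonic muscle and of the heart atrium, and MYL6B was described in human slow muscle and in tissues other than muscle. Mylk2 encodes the kinase that phosphorylates the regulatory light chain in skeletal muscle. Actn2 is made in all striated muscle fibers and Actn3 in fast glycolytic fibers.

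The libraries are polyA RNA sequencing of spinal cord, cortex and muscle from mice that carry human profilin 1 with the C71G change, a model of amyotrophic lateral sclerosis, and from wild-type FVB/NJ mice. The transgenic amiR group (PFN1 C71G mice given AAV-amiR-Atxn2, an adeno-associated virus vector with an artificial microRNA against Atxn2) has 6 libraries in each tissue. The transgenic vehicle group (PFN1 C71G mice given vehicle) has 6 libraries in spinal cord and cortex and 5 in muscle. The wild-type vehicle group (FVB/NJ mice given vehicle) has 6 libraries in spinal cord and muscle and 5 in cortex. Wild-type mice were 36 weeks old. In muscle, 4 transgenic amiR mice were 36 weeks old, 1 was 38 and 1 was 39 weeks old, and 4 transgenic vehicle mice were 36 weeks old and 1 was 39 weeks old. Groups held both sexes. The sources used here do not give which muscle was taken, what drives the transgene or how the vector was given, and no group that received a vector without the Atxn2 sequence was analysed here. In spinal cord and cortex, 4 transgenic amiR mice were 36 weeks old, 1 was 38 and 1 was 39 weeks old, and 4 transgenic vehicle mice were 36 and 2 were 39 weeks old. The labels give each library as a sample of its own, and p-values measure the spread between these samples.

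Libraries held 66481829 to 111885193 counts. Atxn2 itself had 55.9 to 70.0 CPM (the gene's counts relative to the library's total count) in transgenic amiR muscle, 61.1 to 69.3 CPM in transgenic vehicle muscle and 50.7 to 60.3 CPM in wild-type muscle. There, before any scaling beyond the library total, the transgenic amiR group overlapped both others, and every transgenic vehicle library lay above every wild-type library. TMM scaling divides such values by a factor, 1.04 to 1.18 in transgenic vehicle and 0.839 to 0.977 in wild-type muscle. Divided by these factors, the transgenic vehicle and wild-type ranges of Atxn2 overlap. In spinal cord Atxn2 had 68.2 to 77.6 CPM in the transgenic amiR group, 106 to 115 CPM in the transgenic vehicle group and 115 to 124 CPM in the wild-type group. Counts of a vector element (WPRE) were 1 to 5 per library in transgenic amiR muscle, against 3200 to 6991 in transgenic amiR spinal cord, and 0 in the other groups of both tissues. The human transgene had 186 to 305 CPM in transgenic amiR muscle, 170 to 299 CPM in transgenic vehicle muscle and at most 0.0135 CPM in wild-type muscle. CPM after TMM scaling within each tissue was summed over 8 skeletal muscle markers (Acta1, Ckm, Myh4, Tnnt3, Des, Ryr1, Cacna1s and Mb). The sum was 51491 or more in every muscle library. It was 20.8 to 39.8 in cortex and 2.63 to 67.5 in spinal cord, with the exception of transgenic amiR replicate 2, which had 505 and stands apart for most of the genes described here. The names of 4 spinal cord libraries give the other treatment than their titles, and vector counts matched the title in 4 of 4, so titles were used.

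The DNA just before the transcription start is shown for 3 genes that stand for the main directions of change in muscle. RefSeq windows on GRCm38.p6 were available for 7 of the 9 genes, and Mylk2 and Actn3 had none. The bases below hold no annotated exon of the gene, those of Mylpf and Myl3 lie inside the gene's outer ends, downstream of a more distal start, and all read 5′ to 3′ on the gene's strand. Mylpf is shown as the fast regulatory light chain that was lower in transgenic muscle (GRCm38.p6 chr7:127211358-127211607, plus strand). Myl3 is shown as the slow essential light chain that was higher (chr9:110763428-110763645, plus strand), and Actn2 as the alpha-actinin that was higher (chr13:12340761-12340982, minus strand). Capitals mark matches on either strand to CAGCTG (an E-box, the site type bound by myogenic bHLH factors), CATTCC (the MCAT element), TATAAA, the CArG box and the MEF2 site.
Mylpf: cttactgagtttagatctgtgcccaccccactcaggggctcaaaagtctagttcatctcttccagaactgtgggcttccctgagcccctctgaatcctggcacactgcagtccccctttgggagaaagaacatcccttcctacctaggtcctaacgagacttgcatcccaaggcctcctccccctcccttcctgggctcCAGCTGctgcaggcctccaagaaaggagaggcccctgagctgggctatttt
Myl3: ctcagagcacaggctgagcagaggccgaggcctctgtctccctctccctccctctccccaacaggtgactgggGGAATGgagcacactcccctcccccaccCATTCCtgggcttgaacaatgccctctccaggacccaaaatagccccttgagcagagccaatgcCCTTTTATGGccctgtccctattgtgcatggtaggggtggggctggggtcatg
Actn2: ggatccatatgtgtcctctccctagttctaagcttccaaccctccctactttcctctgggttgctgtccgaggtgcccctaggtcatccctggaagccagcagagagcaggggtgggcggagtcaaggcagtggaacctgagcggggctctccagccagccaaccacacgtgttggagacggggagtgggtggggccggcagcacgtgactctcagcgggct
The Mylpf stretch holds 1 E-box, and the Myl3 stretch holds 2 MCAT elements and 1 CArG box, while none of the searched motifs occurs in the Actn2 stretch. Among the 250 bases before each of 32851 starts in the same table, 13% held the E-box, 12.6% the MCAT element, 12.4% TATAAA, 2.92% the MEF2 site and 1.47% the CArG box. Of the other genes, the window of Myl1 held an E-box, TATAAA and an MCAT element, 1 window of Myl2 held an E-box and TATAAA, and those of Myl4 and Myl6b held none of the searched motifs. The RefSeq starts of the 2 Myl2 windows lie 8227 and 7762 bases before the nearest GENCODE start, the window of Myl4 lies at the annotated 5′ start of the gene, and that of Myl1 lies wholly inside the annotated gene. These matches describe letters in a window and were not tested for factor binding.

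The 9 genes differ widely in level, given here from CPM after TMM scaling. On the scale of CPM per kb of exons, in wild-type muscle Mylpf was highest (5842 ± 986, SD, n = 6), followed by Myl1 (3489 ± 586), Actn3 (1667 ± 255), Mylk2 (380 ± 51.0), Actn2 (371 ± 112), Myl3 (21.5 ± 16.6), Myl2 (4.25 ± 4.43), Myl6b (2.71 ± 0.273) and Myl4 (1.74 ± 0.544). In that order Mylk2 overlapped with Actn2, Myl3 with Myl2, Myl2 with Myl6b and Myl6b with Myl4, and the other neighbours did not overlap. In transgenic vehicle muscle Actn2 (549 ± 98.9, SD, n = 5) lay above Mylk2 (83.2 ± 21.8) without overlap, and the ranges of Actn3 (708 ± 143) and Actn2 overlapped. Transgenic amiR muscle had the same first 5 places as transgenic vehicle muscle, with Actn3 (1102 ± 283, SD, n = 6) above Actn2 (451 ± 118) without overlap. Summed within each library, the 9 genes made up 1.40% to 1.92% of all counts in transgenic amiR muscle, 1.54% to 1.66% in transgenic vehicle muscle and 1.71% to 2.02% in wild-type muscle.

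**Figure D1:**
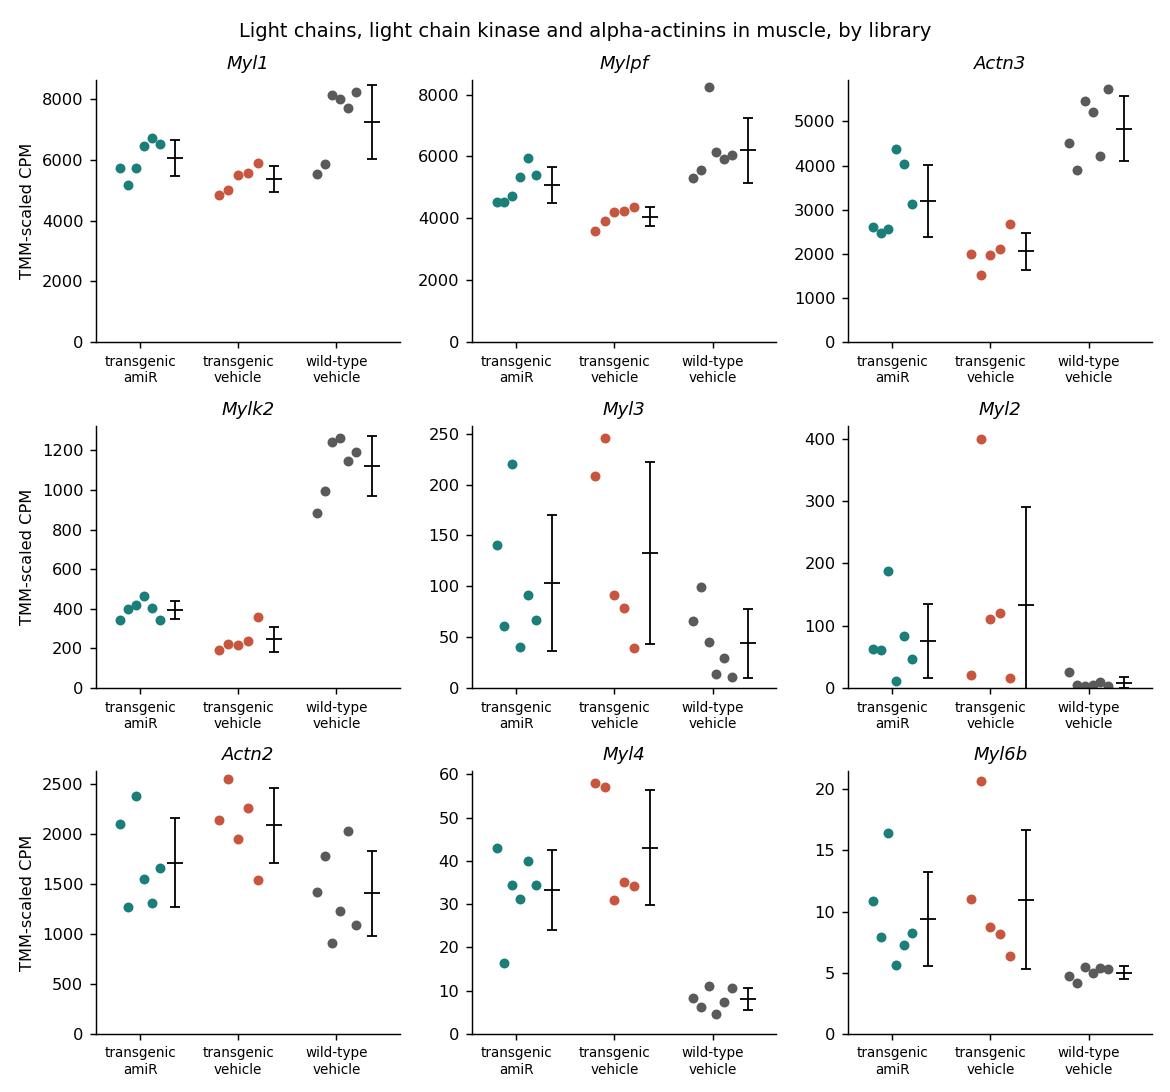
Level of each gene in every muscle library, as CPM after TMM scaling on a linear axis from 0, with points for libraries and a bar for the mean with its SD at the right of each group (6 transgenic amiR, 5 transgenic vehicle and 6 wild-type vehicle libraries). Bars that would run below 0 end at the axis. Mylk2, Actn3 and Mylpf lie lower in transgenic vehicle muscle than in wild-type muscle without overlap, and Myl4 and Myl6b lie higher without overlap.

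The first comparison asks what the transgene goes with in muscle. All 9 genes passed the test between transgenic vehicle and wild-type muscle (edgeR's quasi-likelihood test over 16949 genes with sex as a covariate, Benjamini-Hochberg adjusted p under 0.05). The kinase Mylk2 and the fast forms Actn3, Mylpf and Myl1 were lower, and the slow forms Myl2 and Myl3, the embryonic Myl4, Actn2, which all striated fibers make, and Myl6b were higher. In this comparison 50.5% of all genes tested were called, 25.7% higher and 24.8% lower, so a call by itself is common here and the sizes carry the description. Groups did not overlap for 5 of the 9 genes (Myl4, Myl6b, Mylk2, Mylpf and Actn3), against 28.9% of all genes. The split depends on scaling: with no scaling beyond the library total, 9271 genes were called higher and 1302 lower, against 4351 and 4201 with TMM scaling, the median log2 fold change of all genes shifted by 0.33, and 5 of the 9 genes were called higher and 3 lower. In bulk tissue, fewer fibers of a type and less RNA per fiber cannot be told apart.

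Mylk2, the light chain kinase (GRCm38 chr2:152911352-152923068, plus strand), had the largest decrease of the 9. It had 343, 402 and 462 CPM (lowest, median and highest) in transgenic amiR muscle, 194, 220.5, 219, 237 and 357 CPM in transgenic vehicle muscle, and 882, 1168 and 1263 CPM in wild-type muscle (all CPM from here on in muscle are after TMM scaling). No transgenic library of either kind reached the lowest wild-type library. The log2 fold change of transgenic vehicle over wild-type muscle was -2.22 ± 0.14 (SE, adjusted p = 1.1e-08), a level 0.215 times that of wild type.

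Actn3, the alpha-actinin of fast glycolytic fibers (chr19:4861216-4877909, minus strand), followed. It had 2464, 2871 and 4376 CPM (lowest, median and highest) in transgenic amiR muscle, 1989, 1520.4, 1967, 2117 and 2674 CPM in transgenic vehicle muscle, and 3897, 4861 and 5734 CPM in wild-type muscle. All transgenic vehicle libraries lay below all wild-type ones, while 2 of 6 transgenic amiR libraries (4376 and 4033 CPM) lay within the wild-type range. Transgenic vehicle muscle differed from wild-type muscle by a log2 fold change of -1.29 ± 0.14 (SE, adjusted p = 1.59e-06).

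The fast light chains themselves, Mylpf (chr7:127208890-127214298, plus strand) and Myl1 (chr1:66924295-66945404, minus strand), are the most abundant of the 9 and fell by less. Mylpf had 4516, 5029.6 and 5956 CPM (lowest, median and highest) in transgenic amiR muscle, 3586, 3907, 4199.7, 4228 and 4355 CPM in transgenic vehicle muscle, and 5306, 5977 and 8246 CPM in wild-type muscle. Myl1 had 5184, 6103 and 6705 CPM in transgenic amiR muscle, 4853, 5017, 5499, 5572 and 5878 CPM in transgenic vehicle muscle, and 5516, 7839 and 8224 CPM in wild-type muscle. For Mylpf the transgenic vehicle and wild-type libraries did not overlap, and for Myl1 they did, with 2 wild-type libraries (5516 and 5862 CPM) low. The log2 fold changes of transgenic vehicle over wild-type muscle were -0.63 ± 0.11 for Mylpf (SE, adjusted p = 1.45e-04) and -0.45 ± 0.09 for Myl1 (SE, adjusted p = 5.27e-04). With no scaling beyond the library total, Myl1 was not called (-0.11).

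Among the slow forms, Myl2, the regulatory light chain of slow fibers (chr5:122100951-122113472, plus strand), had the largest fold change and the widest spread. It had 11.3, 62.0 and 187 CPM (lowest, median and highest) in transgenic amiR muscle, 21.3, 400.3, 111, 119.7 and 15.6 CPM in transgenic vehicle muscle, and 2.67, 4.67 and 25.4 CPM in wild-type muscle. A pair of transgenic vehicle libraries (21.3 and 15.6 CPM) lay below the highest wild-type library, so the groups overlapped. The log2 fold change of transgenic vehicle over wild-type muscle was 4.07 ± 0.78 (SE, adjusted p = 3.98e-04), and it was 3.40 without transgenic vehicle replicate 2 and 4.56 without wild-type replicate 1.

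Myl3, the essential light chain of slow fibers (chr9:110741861-110769798, plus strand), had 40.2, 79.2 and 220.3 CPM (lowest, median and highest) in transgenic amiR muscle, 209, 246, 91.5, 78.6 and 39.2 CPM in transgenic vehicle muscle, and 10.6, 37.4 and 99.2 CPM in wild-type muscle. The ranges overlapped, and wild-type replicate 2 (99.2 CPM) lay above 3 of 5 transgenic vehicle libraries. Transgenic vehicle muscle differed from wild-type muscle by a log2 fold change of 1.80 ± 0.36 (SE, adjusted p = 5.38e-04). Myl3 shares 95 exonic bases with Pth1r on the other strand, and the sources used here do not say whether counting used strand. Pth1r averaged 1.29 CPM before scaling in transgenic vehicle muscle and 0.777 CPM in wild-type muscle, far below Myl3.

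Actn2, the alpha-actinin of all striated fibers (chr13:12269426-12340760, minus strand), had 1264, 1606 and 2382 CPM (lowest, median and highest) in transgenic amiR muscle, 2137, 2543, 1950.1, 2256 and 1534 CPM in transgenic vehicle muscle, and 909, 1322 and 2024 CPM in wild-type muscle. The groups overlapped. The log2 fold change of transgenic vehicle over wild-type muscle was 0.57 ± 0.20 (SE, adjusted p = 0.0262). This call was lost without wild-type replicate 6 (0.53), without transgenic vehicle replicate 2 (0.51), without transgenic vehicle replicate 4 (0.52) and with RNA integrity number as a covariate (0.54).

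Myl4, the embryonic essential light chain (chr11:104550663-104595753, plus strand), separated the genotypes without overlap. It had 16.4, 34.5 and 42.9 CPM (lowest, median and highest) in transgenic amiR muscle, 58.0, 57.1, 31.0, 35.1 and 34.1 CPM in transgenic vehicle muscle, and 4.66, 7.80 and 11.2 CPM in wild-type muscle. All 11 transgenic libraries lay above all 6 wild-type libraries. Transgenic vehicle muscle differed from wild-type muscle by a log2 fold change of 2.42 ± 0.25 (SE, adjusted p = 1.26e-06), a level 5.35 times that of wild type.

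Myl6b (chr10:128494157-128498685, minus strand) had 5.60, 8.08 and 16.4 CPM (lowest, median and highest) in transgenic amiR muscle, 11, 20.6, 8.77, 8.17 and 6.33 CPM in transgenic vehicle muscle, and 4.12, 5.16 and 5.44 CPM in wild-type muscle. Here too all transgenic libraries lay above all wild-type libraries, which were close to each other. The log2 fold change of transgenic vehicle over wild-type muscle was 1.09 ± 0.23 (SE, adjusted p = 0.00100).

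In each transgenic group the library that was highest for Myl2 was also highest for Myl3, Actn2 and Myl6b. In wild-type muscle the highest libraries of Myl2 and Myl3 differed. Transgenic vehicle replicate 2 had the highest value of its group for Myl2, Myl3, Actn2 and Myl6b and the lowest for Actn3, and transgenic amiR replicate 3 had the highest value of its group for Myl2, Myl3, Actn2 and Myl6b. Both mice were 39 weeks old, and no wild-type mouse was older than 36 weeks. Among mice of 36 weeks, all 9 genes were called between transgenic vehicle and wild-type muscle, with log2 fold changes of 3.23 for Myl2, 1.81 for Myl3, 0.54 for Actn2, 0.85 for Myl6b and 2.39 for Myl4. Residuals over the 17 muscle libraries were taken after terms for arm and sex were removed. In these, Actn2 and Actn3 ran against each other (Pearson r = -0.67, Spearman rho = -0.65). Myl3 and Actn2 ran together (r = 0.64, rho = 0.64), and so did Myl1 and Mylpf (r = 0.72, rho = 0.39). These values share library and scaling and are given as a description.

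**Figure D2:**
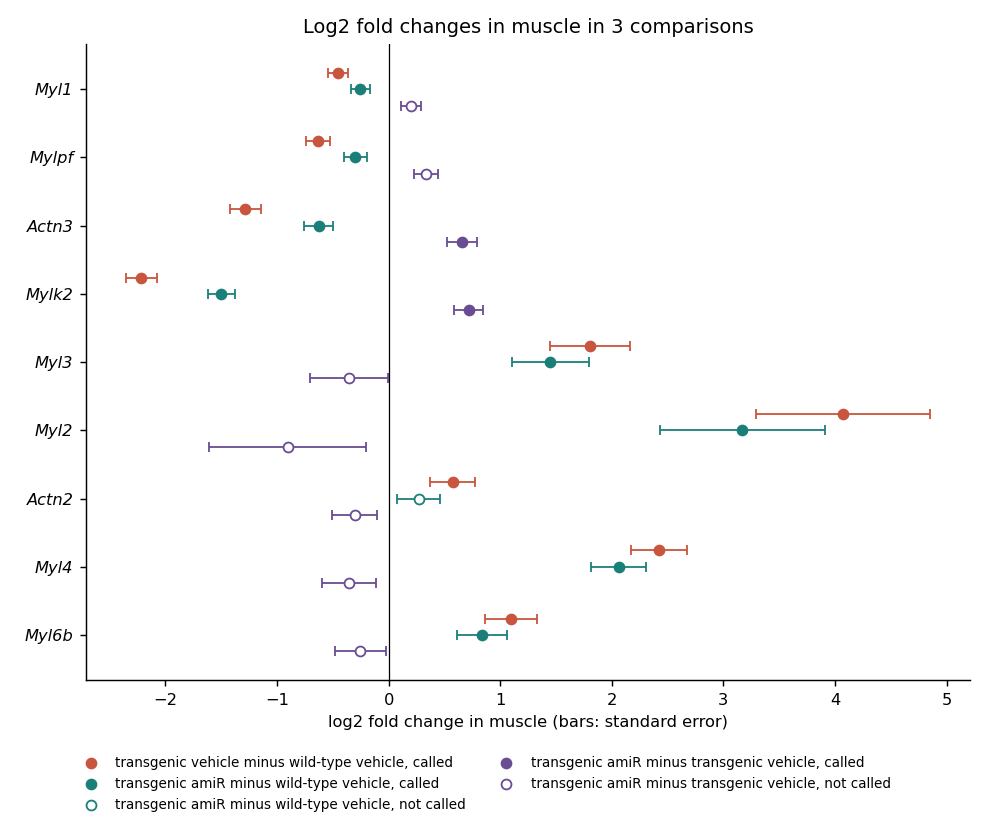
Log2 fold change of each gene in muscle with its standard error, for transgenic vehicle minus wild-type vehicle, transgenic amiR minus wild-type vehicle and transgenic amiR minus transgenic vehicle. Filled points passed an adjusted p under 0.05 and open points did not. Myl2 (4.07) and Mylk2 (-2.22) mark the ends of the first comparison, and Mylk2 (0.72) and Actn3 (0.66) are the 2 filled points of the last.

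The second comparison asks what the Atxn2 vector goes with in transgenic muscle. Mylk2 and Actn3 were higher in transgenic amiR than in transgenic vehicle muscle, and the other 7 genes did not pass the test. The background in this comparison was 1.12% of genes called, 0.767% higher and 0.354% lower. The log2 fold change was 0.72 ± 0.13 for Mylk2 (SE, adjusted p = 0.0289) and 0.66 ± 0.14 for Actn3 (SE, adjusted p = 0.0365). For both, the groups overlapped: the highest transgenic vehicle library (357 CPM for Mylk2, 2674 CPM for Actn3, both replicate 5) lay within the transgenic amiR range. The calls lie near the threshold, while the log2 fold changes stayed at 0.66 to 0.86 for Mylk2 and 0.58 to 0.73 for Actn3 when each library was left out. Neither was called without transgenic vehicle replicate 1, 2, 3 or 4 or without transgenic amiR replicate 5 (Actn3 also not without transgenic amiR replicate 3, 4 or 6), and neither was called among mice of 36 weeks or without sex as a covariate, where the log2 fold changes of Mylk2 were 0.61 and 0.69 and those of Actn3 were 0.66 and 0.64.

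Mylpf was 0.33 ± 0.11 higher on the log2 scale (SE, adjusted p = 0.114). Its 6 transgenic amiR libraries lay above its 5 transgenic vehicle libraries after TMM scaling, which 2.33% of all genes showed in either direction, but the groups overlapped without scaling. It was called by DESeq2 (0.33), with RNA integrity number as a covariate (0.36), in a fit of the 2 groups alone (0.34) and without wild-type replicate 3 (0.34). Myl1 had a log2 fold change of 0.20 ± 0.09 (SE, adjusted p = 0.239). For the 5 remaining genes the differences were not resolved: the 95% interval of the fold, from the log2 fold change and 1.96 times its SE, was 0.206 to 1.39 for Myl2, 0.487 to 1.26 for Myl3, 0.561 to 1.08 for Myl4, 0.613 to 1.14 for Myl6b and 0.614 to 1.07 for Actn2.

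Against wild-type muscle, transgenic amiR muscle had 8 of the 9 genes called, 4 higher and 4 lower, with a background of 35.2% of genes (17.5% higher and 17.7% lower). Both comparisons of transgenic muscle with wild type use the same wild-type libraries. Mylk2 stayed 0.354 times its wild-type level in transgenic amiR muscle (log2 fold change -1.50 ± 0.12, SE, adjusted p = 3.71e-07), and its groups did not overlap. Actn3 had -0.63 ± 0.13 (SE, adjusted p = 0.00116). Myl4 had 2.06 ± 0.24 (SE, adjusted p = 1e-05), Myl2 had 3.17 ± 0.74 (SE, adjusted p = 0.00309), Myl3 had 1.45 ± 0.34 (SE, adjusted p = 0.00357) and Myl6b had 0.84 ± 0.23 (SE, adjusted p = 0.00835). Mylpf (-0.30 ± 0.10, adjusted p = 0.0302) and Myl1 (-0.25 ± 0.08, adjusted p = 0.0269) passed by less and were not called with no scaling beyond the library total (-0.09 for Mylpf and -0.05 for Myl1). The call was also lost without transgenic amiR replicate 1, 2 or 3 for Mylpf, and without wild-type replicate 3, 4 or 6 or transgenic amiR replicate 2 or 4 for Myl1. Actn2 was not called (0.27 ± 0.19, adjusted p = 0.306), with a 95% interval of the fold of 0.925 to 1.57.

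Ratios between genes of one library do not depend on library scaling. Per kb of exons, Actn2 reached 24.8%, 39.9% and 71% of Actn3 (lowest, median and highest) in transgenic amiR muscle, 82.1%, 128%, 75.8%, 81.5% and 43.9% in transgenic vehicle muscle, and 12.7%, 21.0% and 36.8% in wild-type muscle. Every transgenic vehicle library lay above every wild-type library, and 1 transgenic vehicle library had more Actn2 than Actn3. As a share of the pair, Actn2 was 29.6% ± 8.71 in transgenic amiR muscle (SD, n = 6), 43.9% ± 9.11 in transgenic vehicle muscle (SD, n = 5) and 18.6% ± 6.66 in wild-type muscle (SD, n = 6).

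The light chain pairs moved on a smaller base. Myl2 was 0.115% to 2.16% of Mylpf per kb in transgenic amiR muscle, 0.195% to 5.58% in transgenic vehicle muscle and 0.0234% to 0.261% in wild-type muscle. Myl3 was 0.631% to 3.90% of Myl1 in transgenic amiR muscle, 0.676% to 4.98% in transgenic vehicle muscle and 0.131% to 1.72% in wild-type muscle. Myl4 was 0.142% to 0.334% of Myl1 in transgenic amiR muscle, 0.252% to 0.535% in transgenic vehicle muscle and 0.0261% to 0.0669% in wild-type muscle, and for this pair, but not for Myl2 with Mylpf, Myl3 with Myl1 or Actn2 with Actn3, both transgenic groups lay wholly above wild type. In every arm the fast forms made up most of the light chain RNA: Myl1 was 97.9% ± 1.25, 96.9% ± 2.03 and 99.2% ± 0.631 of the 4 essential light chains in transgenic amiR, transgenic vehicle and wild-type muscle (SD, n = 6, 5 and 6). The kinase was also lower relative to its substrate: Mylk2 was 2.82% ± 0.394 of Mylpf per kb in transgenic amiR muscle, 2.16% ± 0.445 in transgenic vehicle muscle and 6.55% ± 0.748 in wild-type muscle (SD), and both transgenic groups lay wholly below wild type.

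**Figure D3:**
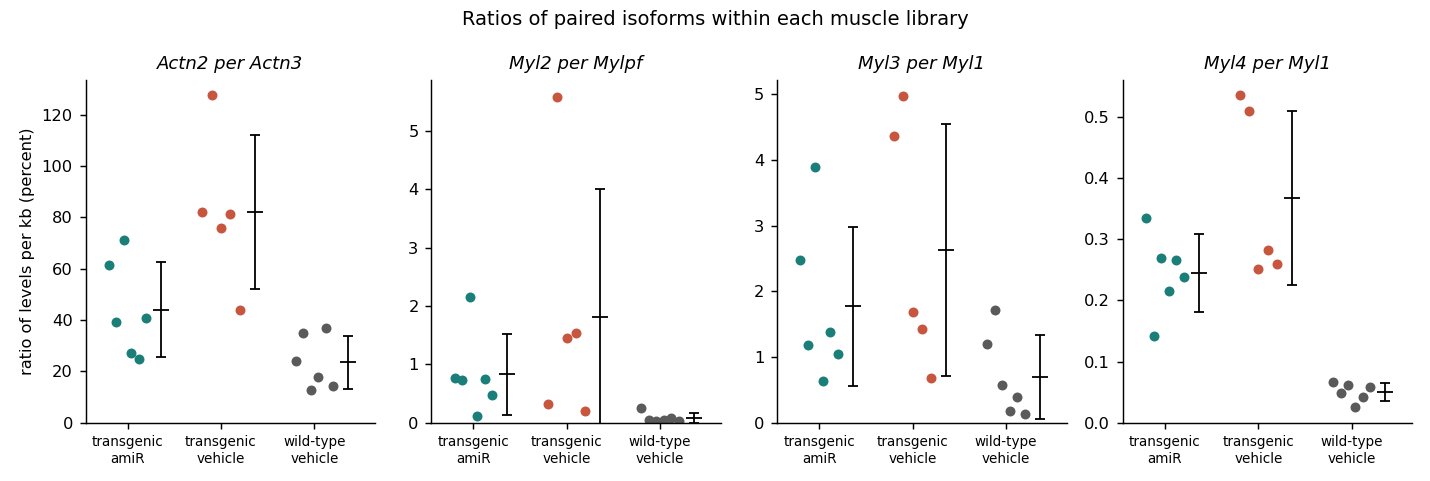
Ratio of each slow or embryonic light chain, and of Actn2, to the fast form of its family in each muscle library, in percent and per kb of exons, on linear axes from 0, with the mean and SD of each group at its right (6 transgenic amiR, 5 transgenic vehicle and 6 wild-type vehicle libraries). Bars that would run below 0 end at the axis. For Actn2 per Actn3 the transgenic vehicle libraries (43.9% to 128%) lie above all wild-type libraries (12.7% to 36.8%), and for Myl4 per Myl1 both transgenic groups do.

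Other genes of the contractile apparatus moved in muscle alongside the 9. Of 13 slow fiber genes, 12 were called higher in transgenic vehicle than in wild-type muscle and none lower (median log2 fold change 2.67, against 0.01 over all genes tested). They include Tnni1, the slow troponin I (4.32), Tnnt1, the slow troponin T (4.31), Atp2a2, the slow calcium pump (3.01), and Sln, which encodes the pump inhibitor sarcolipin (6.18), and Myh7b was the 1 gene not called (0.34). Of 14 fast fiber genes, 12 were lower and 1 higher (median -1.10), and all genes have the shares given above (25.7% higher and 24.8% lower). Pvalb, the calcium buffer parvalbumin, fell by 1.71 on the log2 scale, Atp2a1, the fast calcium pump, by 1.11, Tpm1 by 1.10 and Myoz1, a Z-disc protein of fast fibers that binds alpha-actinin, by 1.38. Myh2, the heavy chain of fast oxidative fibers, was the 1 gene that was higher (1.51), and Myh1 was not called (-0.08). All 14 genes of a list for embryonic and denervated muscle were higher (median 3.65), among them Runx1 (4.40) and the acetylcholine receptor subunits Chrnd (4.27) and Chrna1 (3.93).

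Genes of a list around the Z-disc, not all of them partners of alpha-actinin, did not go one way. Of 16, 3 were higher and 9 were lower in transgenic vehicle than in wild-type muscle (median -0.24), against 25.7% of all genes higher and 24.8% lower. Cryab, the small heat shock protein alpha-B crystallin, rose by 1.09 on the log2 scale, and Pdlim3, an alpha-actinin-associated LIM protein, and Flnc, filamin C, both named because so few rose, by 1.03 and 0.89. Pdlim7 fell by 0.94, Myoz3 by 0.93 and Capzb, the capping protein subunit, by 0.38. The alpha-actinins of other cells, Actn1 (0.24, adjusted p = 0.321) and Actn4 (0.14, adjusted p = 0.342), were not called.

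Among other light chains, kinases and phosphatase subunits, 12 annotated genes were tested, Myl12b counting as 2 because it has 2 identifiers, and 4 were higher and 3 lower in transgenic vehicle than in wild-type muscle, a share near the 50.5% of all genes called. Myl12a, a regulatory light chain of non-muscle cells, rose by 2.09 on the log2 scale, to 487 CPM in transgenic vehicle muscle, against 115 CPM in wild-type muscle. The 2 entries of Myl12b had 1.60 (adjusted p = 4.24e-06) and -0.02 (adjusted p = 0.893), and near-identical light chain genes may have had their reads split by the counting. Mylk4, another light chain kinase, fell by 1.66, and Ppp1cb, the catalytic subunit of myosin phosphatase, fell by 0.51. Between transgenic amiR and transgenic vehicle muscle, 5 of the 14 fast fiber genes were called higher (median 0.43), against 0.767% of all genes (Mybpc2 1.27, Pvalb 0.77, Myoz1 0.64, Casq1 0.62 and Atp2a1 0.51), and none of the slow fiber, embryonic, Z-disc or other light chain genes was called in either direction. None of the 5 fast fiber calls held without sex as a covariate, among mice of 36 weeks, with the replicate number as a block, or with the library total without mitochondrial and muscle genes. The same was true without transgenic vehicle replicate 1, 2, 3 or 4 or transgenic amiR replicate 3, 5 or 6. Under other settings, 12 of the 14 were called by DESeq2, 11 with RNA integrity number as a covariate and 8 with no filter on low counts. From the 2 groups alone 5 were called, and 4 with no scaling beyond the library total. In the same list 12 genes were called without wild-type replicate 3, 3 without wild-type replicate 2, 2 without wild-type replicate 1, 4 or 6, and 1 without transgenic amiR replicate 2 or 4, and the list's median stayed at 0.38 to 0.48 when each library was left out. At an unadjusted p under 0.05 the comparison had 3235 of 16949 genes.

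Markers of other cells also differed between the muscle groups. Over all genes, 25.7% were called higher and 24.8% lower in transgenic vehicle than in wild-type muscle. Summed CPM of 6 fibroblast markers was 406 to 1139.6 in transgenic amiR muscle, 1191 to 2536 in transgenic vehicle muscle and 284 to 975 in wild-type muscle. All 6 were called higher in transgenic vehicle than in wild-type muscle. Of these, 1 (Col3a1) was lower in transgenic amiR than in transgenic vehicle muscle (-1.36, adjusted p = 0.0468), against 0.354% of all genes. Summed CPM of 7 macrophage and immune markers was 55.7 to 158 in transgenic amiR muscle, 126 to 168 in transgenic vehicle muscle and 25.8 to 115 in wild-type muscle, and all 7 were called higher in transgenic vehicle than in wild-type muscle. Of 4 heart markers tested, Myh6 was higher (2.35) and Tnni3, Ryr2 and Hcn4 were not called. Of 8 smooth muscle and mural markers 2 were lower (Tagln -0.59 and Smtn -0.21), near the share of all genes. Of 5 adipocyte markers, 2 neuron markers, 1 motor neuron marker and 3 astrocyte markers tested, none was called by edgeR, and the motor neuron markers Mnx1, Chat and Slc18a3 were at 0 in every muscle library. Of the 8 skeletal muscle markers, 6 were lower, among them Myh4 (-2.12), Ckm (-1.12), Tnnt3 (-0.73) and Ryr1 (-0.46), and Mb was higher (0.27). RNA integrity numbers were 7.6 to 8.0 in transgenic amiR, 7.4 to 8.0 in transgenic vehicle and 7.1 to 7.8 in wild-type muscle, and mitochondrial transcripts took 16.8% to 22.9%, 14.6% to 19.8% and 17.4% to 20.0% of counts in these groups. The part of these markers and measures in the values of the 9 genes was not tested.

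Genes whose residual pattern over the 17 muscle libraries was most like each of the 9 were looked for among 7109 genes of at least 10 mean CPM. Terms for arm and sex were again removed. For Myl2 they were Tnnc1, the troponin C of slow fibers and heart (Pearson r = 0.95), and Myh7, the slow heavy chain (r = 0.94). For Actn2 they were Slc12a4 (r = 0.96) and Myh2 (r = 0.94). For Myl1 the closest was Mylf-ps (r = 0.89), annotated by name as a light chain pseudogene, which had 11.7 to 17.6 CPM before scaling, and reads of Myl1 and Mylf-ps may not be separable. The closest were Rtca and Slirp for Mylpf (r = 0.94 for both), Cilp and Ptpa for Myl3 (r = 0.89 and 0.86), Lrrfip1 and Smarce1 for Myl4 (r = 0.91 and 0.89), Pik3c3 and Abhd4 for Mylk2 (r = 0.88 and 0.87), and Tmem184c and Kat7 for Actn3 (r = 0.93 for both). Myl6b was below the level limit and was not searched. With so many genes and 17 libraries, high values are common and are given as a description.

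Outside muscle the same genes were scarce, with 3 exceptions. In wild-type libraries, Myl6b was higher per kb in spinal cord and in cortex than in muscle, Myl4 in cortex came close to its level in muscle, and Actn2 in cortex stood above the remaining members. Over all arms, Myl6b had a median of 15.4 CPM before scaling in spinal cord, 9.65 CPM in cortex and 7.46 CPM in muscle. Actn2 had 18.2 CPM in cortex and 4.75 CPM in spinal cord, against 1626 CPM in muscle, and Myl4 had 7.22 CPM in cortex, 0.932 CPM in spinal cord and 33.8 CPM in muscle. Myl1 had 2.71 CPM in cortex and 0.419 CPM in spinal cord. Medians of Myl3, Mylpf, Myl2, Mylk2 and Actn3 were below 1 CPM in both tissues, and Mylk2 had a count of 0 in 9 of 17 cortex libraries, where 0 counts allow up to 0.0371 to 0.0444 CPM (3 counts, counting error only).

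**Figure D4:**
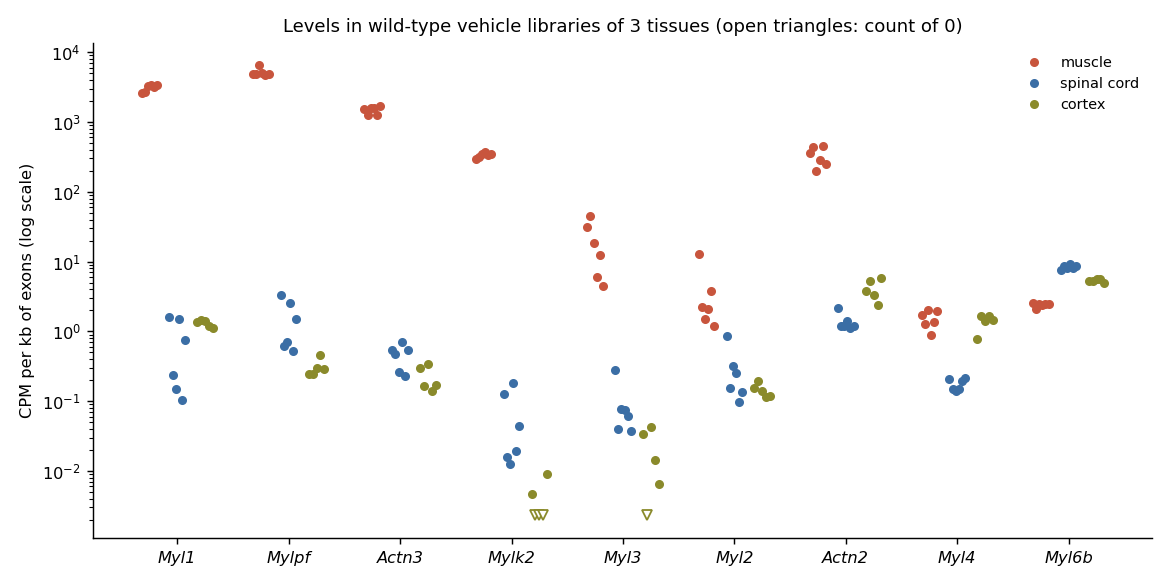
Level of each gene in wild-type vehicle libraries of muscle (n = 6), spinal cord (n = 6) and cortex (n = 5). Values are CPM per kb of exons before TMM scaling on a log axis, 1 point per library. Open triangles below the axis range of the other points mark libraries with a count of 0. Myl6b is the gene for which spinal cord and cortex points lie above the muscle points.

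In spinal cord, none of the 9 genes passed the test in the 3 comparisons, whose backgrounds were 36.8% of genes for transgenic vehicle against wild type, 5.11% for transgenic amiR against transgenic vehicle and 25.5% for transgenic amiR against wild type. By edgeR, 1, 3 and 0 members had an unadjusted p under 0.05, and DESeq2 called 1, 0 and 0 of the 7, 6 and 7 members to which it gave an adjusted p. Myl6b, the only member with 1023 or more counts in every spinal cord library, had 13.4, 15.6 and 18.7 CPM after TMM scaling (lowest, median and highest) in the transgenic amiR group, 12.7, 14.2 and 15.6 CPM in the transgenic vehicle group, and 14.4, 16.2 and 17.5 CPM in the wild-type group. The groups overlapped, and the log2 fold change of transgenic vehicle over wild type was -0.19 ± 0.08 (SE, adjusted p = 0.0658). It passed with DESeq2 (-0.19), among mice of 36 weeks (-0.27) and in a fit of the 2 groups alone (-0.18). It also passed without wild-type replicate 1 (-0.23), without transgenic vehicle replicate 3 (-0.22), and without transgenic amiR replicate 1 (-0.19) or 2 (-0.18).

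Transgenic amiR replicate 2 of the spinal cord held far more RNA of the fast genes than the other 17 spinal cord libraries. Its counts were 2415 for Myl1 (2 to 301 in the others), 2033 for Mylpf (37 to 315), 1424 for Actn3 (47 to 173), 305 for Mylk2 (2 to 45), 524 for Myl2 (13 to 150), 181 for Myl3 (6 to 52) and 1176 for Actn2 (242 to 741). Myl4 (86 counts, 54 to 99 in the others) and Myl6b (1460 counts, 1023 to 1627) lay within the others. Other skeletal muscle genes were raised in the same library, with 12833 counts of Acta1 (29 to 2241 in the others) and 4240 of Ckm (5 to 722), whereas Acta2, the smooth muscle actin, had 740.0 (323 to 829). After TMM scaling, summed CPM of 5 adipocyte markers was 742 in this library and at most 57.4 in the other 17. The part of either kind of tissue in the counts of this library was not tested. The excess over the median of the others was 0.461% of the mean muscle level for Myl1, 0.463% for Mylpf, 0.485% for Actn3, 0.546% for Actn2, 0.625% for Mylk2, 0.640% for Acta1 and 0.493% for Ckm, and thus 0.461% to 0.640% for these 7 genes. For Myl2 and Myl3 the excess was 8.05% and 2.12% of the mean muscle level. For Actn2, the log2 fold change of transgenic amiR over transgenic vehicle was 0.19 with this library and -0.18 without it, and that over wild type was 0.09 with it and -0.28 without it, and none of these was called. Without it, 1 member was called in spinal cord between transgenic amiR and wild type, Myl1 (-2.66 ± 0.95, SE), which had 2 to 63 counts in the remaining transgenic amiR libraries and 19 to 301 in the wild-type libraries. Summed CPM of the skeletal muscle markers was 67.5 and 48.0 in wild-type replicates 1 and 4 and 3.56 to 19.7 in the other wild-type libraries. It was 2.63 to 12.1 in the remaining transgenic amiR libraries. The part of muscle RNA in the Myl1 difference was not tested.

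**Figure D5:**
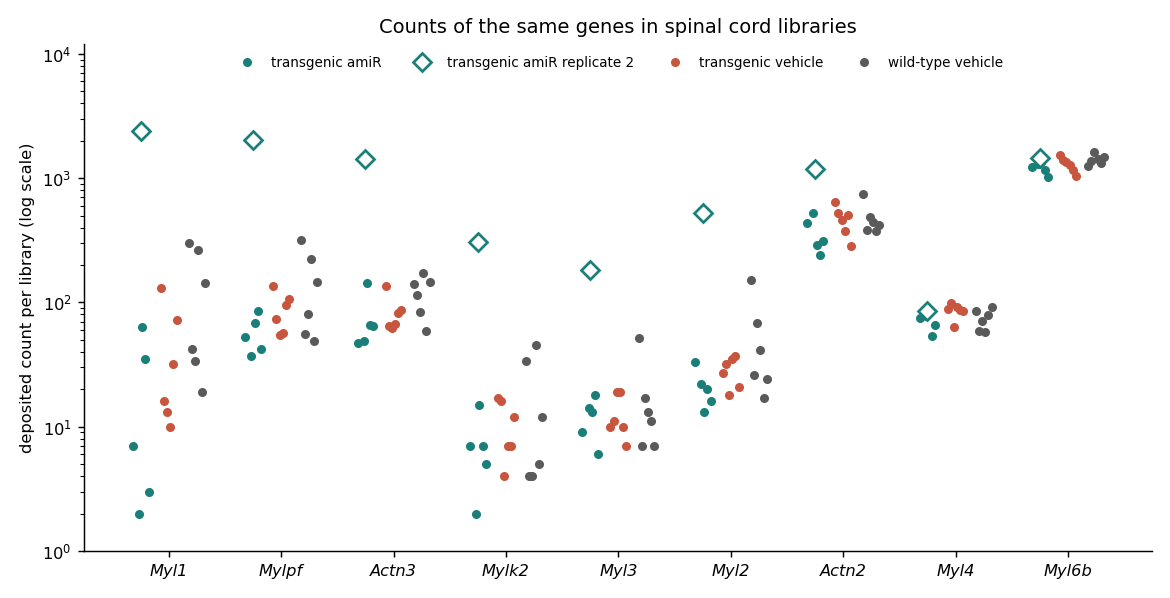
Deposited counts of each gene in every spinal cord library on a log axis, with 6 libraries in each of the transgenic amiR, transgenic vehicle and wild-type vehicle groups. The open diamond is transgenic amiR replicate 2, which lies above all other libraries for 7 of the 9 genes and within them for Myl4 and Myl6b.

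In cortex 7 of the 9 genes passed the filter on low counts and were tested, and Myl3 and Mylk2 did not. None was called, with backgrounds of 0.0197% of genes for transgenic amiR against transgenic vehicle, 0.0247% for transgenic vehicle against wild type and 1.12% for transgenic amiR against wild type, and no member had an unadjusted p under 0.05 in any of the 3 (DESeq2 called none either). Actn2 had 10.4, 17 and 33.8 CPM after TMM scaling (lowest, median and highest) in the transgenic amiR group, 12, 19.2 and 25.5 CPM in the transgenic vehicle group, and 9.20, 13.9 and 22.6 CPM in the wild-type group. Myl4 had 4.57, 7.31 and 18.8 CPM in the transgenic amiR group, 3.09, 6.42 and 11.3 CPM in the transgenic vehicle group, and 3.58, 6.88 and 8.01 CPM in the wild-type group, and both genes overlapped between all groups. In cortex Myl1 exceeded Mylpf in counts by a median of 6.60 times, against 1.27 times in muscle and 0.416 times in spinal cord, so the 2 fast light chains do not stand in the muscle ratio in cortex libraries.

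The transgene effect (transgenic vehicle over wild type) was also compared between muscle and spinal cord in one model. Labels do not tie tissues to mice, and the model treated all libraries as independent, also any from the same mouse. The effect was larger in muscle for Myl2 (difference of log2 fold changes 4.93 ± 1.28, SE, adjusted p = 0.00311), Myl4 (2.25 ± 0.30, adjusted p = 7.64e-07) and Myl6b (1.27 ± 0.25, adjusted p = 1.56e-04). These are 3 of 9 genes, with a background of 33.5% of genes, so the share of the 9 is near that of all genes. Myl2 was low in spinal cord (median 26.5 counts), where wild-type replicate 1 had 150 counts and stood apart from its group. Myl2 stayed called in the same direction when each muscle or spinal cord library was left out in turn, that library among them. For Mylk2 (-1.35 ± 1.12), Actn3 (-0.67 ± 0.78), Mylpf (0.15 ± 0.93) and Myl1 (1.34 ± 1.33) the difference was not called. Without spinal cord transgenic amiR replicate 2, 5 genes were called, the further ones being Actn2 (0.74) and Myl3 (2.39). Myl3 was also called without wild-type replicate 2 of spinal cord (2.63) or muscle (2.49), transgenic vehicle replicate 4 of spinal cord (2.67), transgenic amiR replicate 1 of spinal cord (2.35) or transgenic amiR replicate 2 of muscle (2.31). No member was called for a difference of the transgene effect in muscle between males and females (background 0.112% of genes, by edgeR, and 0 members by DESeq2). Myl6b was the 1 member with an unadjusted p under 0.05 there (difference -1.16 ± 0.38, adjusted p = 0.327).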

How the data were processed

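RNA was taken from powdered spinal cord, cortex and muscle, and polyadenylated RNA was sequenced in paired reads, per the labels' protocols. The authors deposited a table of expected counts per gene for 52 libraries. The submitters' processing notes name, for tools, RSEM 1.3.2, STAR 2.7.2d, DESeq2 1.34.0 and bcl2fastq 2.20, and as builds GRCm38 and GRCh38, with no role or order, and whether counting used strand is not stated there. Of the deposited expected counts, 5.40% to 8.31% per library were not whole, and all were rounded to whole numbers for the tests. Depth was 66481829 to 111885193 counts per library.

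Each tissue was fitted with edgeR 4.0.16 (quasi-likelihood F test, TMM scaling, filterByExpr) in R 4.3.3, over all mouse genes that passed the filter, with group and sex as terms. p-values were adjusted by Benjamini-Hochberg over all genes tested, and a gene was called at an adjusted p under 0.05. The transgene effect was compared between muscle and spinal cord, and between sexes in muscle, by interaction terms. SE is the absolute log2 fold change divided by the square root of F. CPM per kb uses the summed exon length of the gene. The scripts were tested on simulated data with known changes. Alternatives included DESeq2 1.42.0, other scalings and filters, other covariates, subsets by age, and leaving out each library.

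The members and gene lists were chosen with earlier results of these data known. Named genes are the 9 members, up to 4 called genes per list with the smallest adjusted p in transgenic vehicle against wild-type muscle, and, per member, the 2 other genes of at least 10 mean CPM with the highest Pearson r of residuals. Some genes that this rule names are not reported here. Outside that rule, Myh7b, Myh2, Myh1, Pdlim3, Flnc, Mybpc2, Casq1, Col3a1, Mb, Actn1, Actn4, Tnni3, Ryr2, Hcn4, Myl12b, Acta1 and Acta2 were named after their values were seen.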

Additional observations from a re-analysis of the deposited data

Results flagged for a closer look

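Of 72 sets of values (a gene in a group of 5 or 6 libraries), 16 had 1 library far from the rest, measured as its gap to the nearest library divided by the range of the group. Sets with a median under 10 counts were left out. The cutoffs flag about 5% of sets by chance if values are normal and sets are independent. Genes share libraries here, so 16 of 72 cannot be read against that rate. Spinal cord transgenic amiR replicate 2 accounted for 6 of them, with a gap of 0.978 of the range for Myl1, 0.925 for Myl3, 0.972 for Mylpf, 0.968 for Myl2, 0.736 for Actn2 and 0.937 for Actn3. Spinal cord wild-type replicate 1 was highest in its group for Myl3 (gap 0.827 of the range), Myl2 (0.692) and Actn2 (0.746).

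In muscle, Myl2 stood apart in transgenic vehicle replicate 2 (400.3 CPM, next 119.7 CPM, gap 0.730 of the range) and in wild-type replicate 1 (25.4 CPM, next 8.77 CPM, gap 0.732). Mylk2 stood apart in transgenic vehicle replicate 5 (357 CPM, next 237 CPM, gap 0.734) and Mylpf in wild-type replicate 3 (8246 CPM, next 6148 CPM, gap 0.714). In cortex, Myl4 stood apart in transgenic amiR replicate 3 (18.8 CPM, next 7.83 CPM, gap 0.771), and Mylpf, at under 2 CPM, in transgenic vehicle replicate 1 (gap 0.703) and wild-type replicate 4 (gap 0.743).

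The transgene effect differed between muscle and spinal cord by a tested interaction for Myl2 (4.93 on the log2 scale), Myl4 (2.25) and Myl6b (1.27). Spinal cord counts of Myl2 were low (median 26.5).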

How the results depend on the processing

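Between transgenic amiR and transgenic vehicle muscle, 2 members were called, against 0 without sex as a covariate, 0 among mice of 36 weeks, 0 with the replicate number as a block and 1 with the library total without mitochondrial and muscle genes, and 0 to 3 when each library was left out. All genes called there numbered 190, against 596 with no scaling, 295 with no filter, 969 by DESeq2, 3 without sex, 474 with RNA integrity number, 1 among mice of 36 weeks, 3 with the block, 461 from the 2 groups alone and 21 with the reduced library total. With no scaling, 75 of the 596 were higher and 521 lower, and the median of all genes shifted by -0.14. For transgenic amiR over wild-type muscle the unscaled split was 6184 higher and 1060 lower, with a shift of 0.20. No label ties like-numbered libraries to a shared litter, batch or day. The correlation of like-numbered libraries' deviations from their group means was above 0.1 in 13 of 16 pairs in muscle (-0.26 to 0.58), 7 of 18 in spinal cord (-0.16 to 0.34) and 9 of 16 in cortex (-0.42 to 0.63), and the own number was highest in 8, 4 and 8 of them. The fits of the report used no block, and these values do not show that none was needed. With the replicate number as a block, Actn2 in transgenic vehicle against wild-type muscle was 0.53 (not called), Actn3 0.60 and Mylk2 0.71 in transgenic amiR against transgenic vehicle muscle (not called), 0 of the 14 fast fiber genes was called there, against 5, and no other member's call changed. Leaving out each library gave 8 to 9 members called for transgenic vehicle against wild-type muscle and 6 to 8 for transgenic amiR against wild-type muscle.

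In spinal cord, 1 member was called for transgenic vehicle against wild type by DESeq2, among mice of 36 weeks and from the 2 groups alone, and 0 to 1 when each library was left out, also for transgenic amiR against wild type. Actn2 changed sign there. For transgenic vehicle over wild type it was 0.127 with groups by library name. For transgenic amiR over transgenic vehicle it was -0.309 at 36 weeks, -0.258 by library name, -0.0746 without the 4 conflicting libraries and -0.181 without transgenic amiR replicate 2, with a range of -0.181 to 0.317 over libraries left out. For transgenic amiR over wild type it was -0.396 at 36 weeks, -0.131 by library name, -0.249 without the 4 libraries, -0.280 without transgenic amiR replicate 2, and -0.0220 and -0.0111 without wild-type replicate 2 and 3, with a range of -0.280 to 0.183. Myl6b was -0.0315 in spinal cord for transgenic amiR over transgenic vehicle by library name, and in muscle -0.42 to 0.0267 when each library was left out (0.0267 without transgenic vehicle replicate 2). All genes called in spinal cord for transgenic amiR against transgenic vehicle numbered 1037, against 0 to 2229, and in cortex for transgenic amiR against wild type 228, against 9 to 1381. For the difference of the transgene effect between muscle and spinal cord, 5 members were called with no scaling and 3 to 5 when each library was left out, and Mylpf was -0.211 without spinal cord wild-type replicate 4, with a range of -0.211 to 0.503. The cause of these changes was not tested. Counts of Myl3, Mylpf, Myl2, Mylk2 and Actn3 outside muscle were low (medians of 0 to 82.5 per tissue).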
